A study of Mus musculus with 2 samples.

Results

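Neutrophils meet most of their energy needs by glycolysis and feed the pentose phosphate pathway to make NADPH for the oxidative burst, so the 36 genes described here belong to pathways these cells are known for. The 36 genes, of 21911 protein-coding genes in the annotation, cover glucose transport, glycolysis, lactate production and export, the pentose phosphate pathway, glycogen and 2 controlling genes. They were chosen by name, as members of these pathways, at a time when earlier results of these data were known, and the choice used no threshold on a measured value. All 36 symbols matched a protein-coding gene of GENCODE M21. Aldoa matched 2 annotated genes of the same symbol, which were joined.

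Open chromatin was measured by ATAC-seq, in which a transposase cuts and tags accessible DNA. There was 1 group of 2 libraries, biological replicates 1 and 2, each from 50000 neutrophils. These were primary cells of peripheral blood from C57BL/6J mice, adults of 5 to 6 weeks. No treatment, mutant or other cell type was included, so the genes are compared with each other and with all genes, and no test between groups of samples was possible. Both replicates carry the same donor record in the labels, and separate mice are not named, so the spread between the replicates may be technical.

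Glucose enters cells through transporters, hexokinases trap it as glucose 6-phosphate, and phosphofructokinase-1 commits it to glycolysis. Glucose 6-phosphate can instead enter the pentose phosphate pathway, whose oxidative arm yields NADPH and whose other arm interconverts sugars, or be stored as glycogen. Many of these steps have several isoenzymes, encoded by separate genes that differ between tissues. HIF-1, made of the subunits encoded by Hif1a and Arnt, is known to switch on many genes of glycolysis, and it recognises the letters ACGTG.

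A promoter region is an open region that overlapped 1 kb on either side of any annotated start site of a gene, in the list of each replicate thresholded by the irreproducible discovery rate (IDR), a measure of how well peaks repeat. Each region carries a signal value, the authors' own score for the peak. The sources used here neither define it nor give it a unit, so it is used to rank peaks of the same list. Replicate 1 had 27709 regions and replicate 2 had 14548, and the depth of the libraries is unknown. Promoters of marker genes were set beside all protein-coding genes, of which 39.8% had a promoter region in both replicates and 47.1% in replicate 1. Of 12 neutrophil marker genes, 4 had a promoter region in both replicates and 11 in replicate 1, with none at Ly6g, and their summed signal value was 96.3 in replicate 1 and 45.1 in replicate 2. Of 8 B cell markers, 6 had one in both replicates and 8 in replicate 1, with sums of 103 and 74.1. The defining B cell genes Cd79a, Ms4a1 and Pax5 were among the 6, and of the 6 marker lists the B cell list alone had a share in both replicates above that of all genes. Of 8 T cell markers 1 was open in both replicates (Cd3d, sums 16.9 and 17.8), with none at Cd3e and Cd3g. Of 7 monocyte markers 1 was (Nr4a1, sums 8.12 and 12.2), with none at Csf1r and Ccr2. Of 6 platelet markers 1 was (Itgb3, sums 21.4 and 12.8), and of 7 erythroid markers 0, in either replicate. The part of B cells in the regions described below was not tested.

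In 9 of these genes the promoter held the HIF-1 core letters within 50 bp of the strongest point of its open region, called the summit. These 101-base windows are printed because the genes include the glucose transporter, hexokinase, lactate dehydrogenase and lactate exporter genes that the results return to. Sequences are from GRCm38.p6, 5′ to 3′ on the strand of the gene, and capitals mark ACGTG or its reverse complement CACGT.
Slc2a1 (chr4:119108613-119108713, plus strand): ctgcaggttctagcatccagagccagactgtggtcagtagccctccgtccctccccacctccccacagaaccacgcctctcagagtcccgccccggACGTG
Hk2 (chr6:82774477-82774577, minus strand): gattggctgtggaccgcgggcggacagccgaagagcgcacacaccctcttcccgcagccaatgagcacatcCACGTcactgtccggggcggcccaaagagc
Pfkfb3 (chr2:11553938-11554038, minus strand): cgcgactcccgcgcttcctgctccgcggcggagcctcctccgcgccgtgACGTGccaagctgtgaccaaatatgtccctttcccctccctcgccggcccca
Gapdh (chr6:125165658-125165758, minus strand): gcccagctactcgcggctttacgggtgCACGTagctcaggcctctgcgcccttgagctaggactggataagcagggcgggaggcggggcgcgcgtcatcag
Pgk1 (chrX:106186944-106187044, plus strand): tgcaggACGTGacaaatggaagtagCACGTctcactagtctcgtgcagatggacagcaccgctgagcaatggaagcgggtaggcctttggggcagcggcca
Pgam1 (chr19:41911703-41911803, plus strand): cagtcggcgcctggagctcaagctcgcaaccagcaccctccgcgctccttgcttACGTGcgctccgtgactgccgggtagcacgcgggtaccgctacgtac
Ldha (chr7:46845770-46845870, plus strand): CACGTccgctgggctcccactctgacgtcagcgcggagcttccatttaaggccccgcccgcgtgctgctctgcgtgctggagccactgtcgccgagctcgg
Slc16a3 (chr11:120950972-120951072, plus strand): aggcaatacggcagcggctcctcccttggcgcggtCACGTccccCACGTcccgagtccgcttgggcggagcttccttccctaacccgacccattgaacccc
Hif1a (chr12:73907754-73907854, plus strand): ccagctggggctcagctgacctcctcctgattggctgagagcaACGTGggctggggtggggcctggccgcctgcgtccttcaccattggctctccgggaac

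Most of the 36 genes had an open promoter. In replicate 1, 33 of 36 (91.7%) had a promoter region, against 47.1% of all protein-coding genes, and in replicate 2, 32 of 36 (88.9%), against 40.3%. The same 32 genes had one in both replicates, against 39.8% of all genes. In the pooled conservative IDR list, made by the authors from both replicates, 32 of 36 did, against 46.7%. All genes of upper glycolysis (8 of 8), of the pentose phosphate pathway (7 of 7) and of glycogen (3 of 3) were open in both replicates, as were both controlling genes. The 8 include Pfkm, whose region lay at the start site of a neighbour, as described below. For glucose entry the count was 4 of 5, for lower glycolysis 6 of 7, and for lactate production and export 2 of 4. The 4 genes without a promoter region in both replicates were Hk3, Eno2, Ldhb and Slc16a1.

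CpG-rich start sites, which are open in many cell types, were more common among these genes than among all genes, at 22 of 36 (61.1%) against 44.4%. Within that class 20 of 22 (90.9%) were open in both replicates, against 66.8% of all CpG-rich genes. Of the other 14 genes 12 were open (85.7%), against 18.2% of all genes of that class. The class was scored at the 5'-most start site, while a region at any start site counted. Among the 12, the regions in both replicates at Aldoa, Ldha, Hif1a, Tkt and Pfkm were themselves CpG-rich, and those of the others were not. The 12 are therefore not all cases of an open CpG-poor promoter. The pathway genes also had more annotated start sites, with a median of 6 per gene against 3, and a gene with more start sites has more places where a region can count. With the 5'-most start site alone, 25 of 36 remained open in both replicates, against 36.5% of all genes.

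The signal at these promoters was not high for an open gene. The median highest signal value was 11.6 over the 33 genes of replicate 1, against 12.4 over all 10317 genes with a promoter region. In replicate 2 it was 13.4 over 32 genes, against 13.9 over all, and in the pooled list 12.9, against 13.9. Only 14 of 33, 12 of 32 and 14 of 32 genes reached the median of all genes in these lists. Replicate 2 gave the higher value for 29 of the 32 genes open in both (90.6%), against 64.3% of all such genes. The median difference, replicate 2 minus replicate 1, was 1.35 for the pathway genes and 0.756 for all genes, and the sources do not say whether the lists share a scale.

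**Figure D1:**
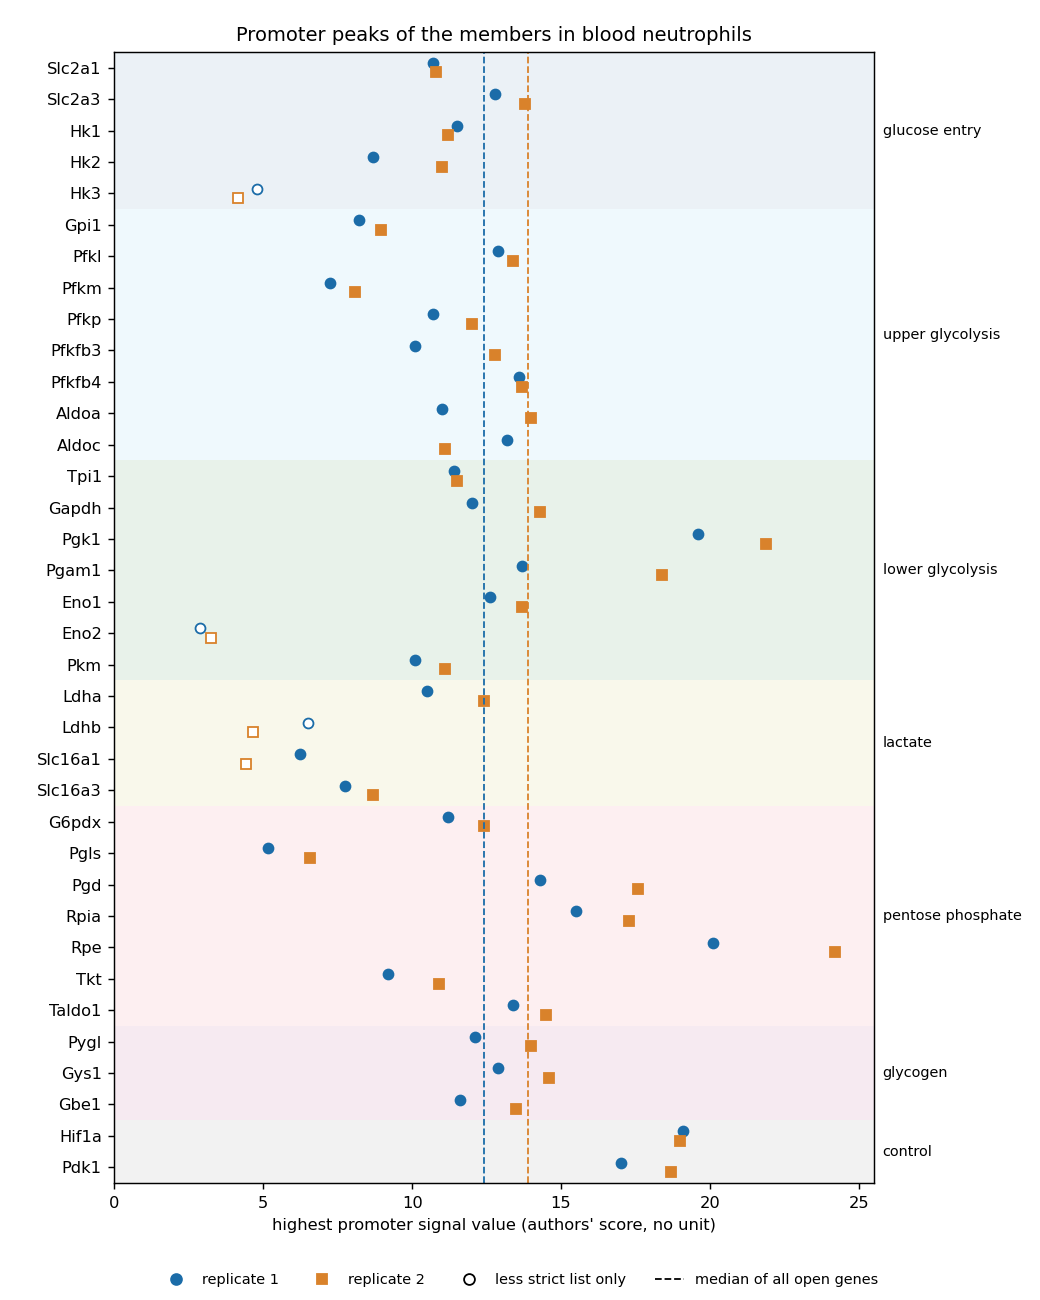
Highest promoter signal value (authors' score, no unit) of each of the 36 genes, by pathway step, in replicate 1 (circles) and replicate 2 (squares). Open symbols are values found in the less strict list only, and dashed lines are the medians over all open genes, 12.4 and 13.9. Rpe, Pgk1, Hif1a, Pdk1, Rpia and Pgd lie to the right of both lines in both replicates, and Hk3, Eno2 and Ldhb have open symbols in both replicates.

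**Figure D2:**
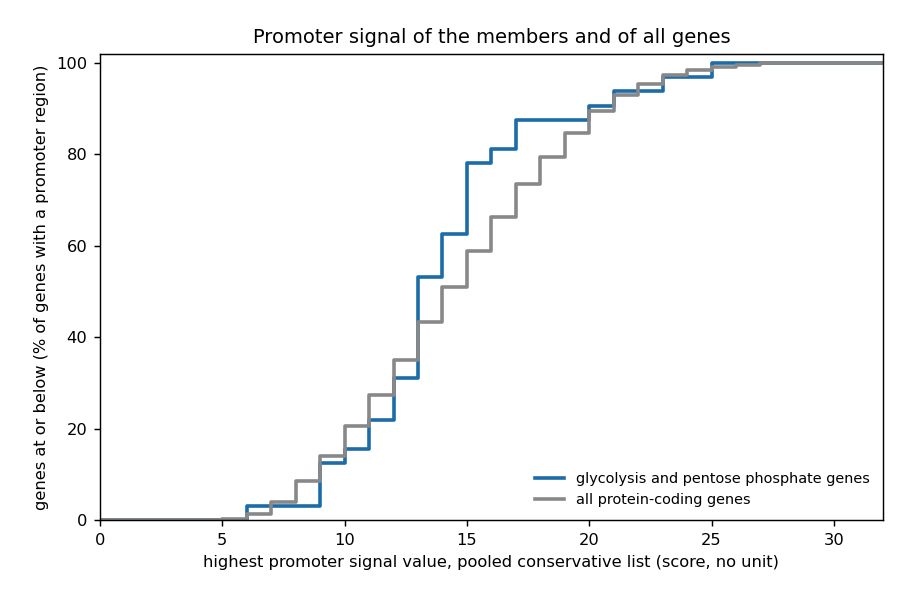
Cumulative share of genes with a promoter region (%, y axis) against the highest promoter signal value in the pooled conservative list (score without unit, x axis, read at whole numbers), for the 32 pathway genes and all 10242 genes. The pathway genes gather in the middle of the range, with a median of 12.9 against 13.9.

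At glucose entry, both transporters and 2 of 3 hexokinases were open. Slc2a3, which encodes the high-affinity transporter GLUT3, had signal values of 12.8 in replicate 1 and 13.8 in replicate 2. Slc2a1, which encodes the widely used transporter GLUT1, had 10.7 and 10.8. The Slc2a3 promoter was thus above that of Slc2a1 in both replicates, by 2.14 and 2.97 (mean 2.56 ± 0.592, SD, n = 2).

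Hexokinase 1, the broadly expressed form, had 11.5 and 11.2 at Hk1, and hexokinase 2, the inducible form, had 8.67 and 11.0 at Hk2. Their difference was 2.85 in replicate 1 and 0.158 in replicate 2, a mean of 1.5 that was smaller than its SD of 1.90, so the order of Hk1 and Hk2 did not stand out from the replicate spread. Hk3, the hexokinase gene known for its expression in myeloid cells, had no promoter region in the IDR list of either replicate. It was listed at 4.8 in replicate 1 and 4.15 in replicate 2 in the less strict lists, at its own start site. Its −log10 IDR in the ranked pooled list was 1.24, just short of the 1.30 that marks the lowest peak of the conservative list. The Hk1 summit lay 312 bp from a start site of Hk1 and 26 bp from that of the antisense gene Hk1os, so its openness cannot be assigned to Hk1 alone. The Hk1 and Hk3 windows are shown for the contrast between a GC-rich and a GC-poor hexokinase promoter, with 73.3% and 43.6% of bases G or C and 7 and 1 CpG dinucleotides. Capitals mark letters of the motifs searched, a GC box in Hk1, and a hypoxia core and a RUNX string in Hk3.
Hk1 (chr10:62340180-62340280, minus strand): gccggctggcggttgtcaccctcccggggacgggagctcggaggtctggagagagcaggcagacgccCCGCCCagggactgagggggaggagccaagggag
Hk3 (chr13:55021505-55021605, minus strand): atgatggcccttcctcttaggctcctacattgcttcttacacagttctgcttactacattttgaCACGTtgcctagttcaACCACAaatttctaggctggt

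In upper glycolysis every gene had a promoter region in both replicates, at middling to low values. Gpi1, which converts glucose 6-phosphate to fructose 6-phosphate, had 8.23 and 8.94. Of the phosphofructokinase-1 genes, the liver type Pfkl had 12.9 and 13.4, the platelet type Pfkp 10.7 and 12, and the muscle type Pfkm 7.24 and 8.09. This order was the same in both replicates, and Pfkl exceeded Pfkp by 1.81 ± 0.563 (SD, n = 2). The Pfkm region was centred elsewhere than on Pfkm. Its summit lay 762 bp inside the nearest Pfkm start site and 36 bp from the start site of Senp1, a SUMO protease gene on the opposite strand, so its openness cannot be assigned to Pfkm.

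The phosphofructokinase-2 enzymes make fructose 2,6-bisphosphate, the main activator of phosphofructokinase-1. Pfkfb4 had 13.6 and 13.7, and Pfkfb3 had 10.1 and 12.8. The Pfkfb4 summit lay 111 bp from the Pfkfb4 start site and 97 bp from that of Gm38004, a noncoding gene on the opposite strand. Its openness therefore cannot be assigned to Pfkfb4 alone. Pfkfb4 was higher in both replicates, by 3.50 and 0.976 (mean 2.24 ± 1.79, SD, n = 2), so the size of the difference varied between replicates. The 2 Pfkfb3 values came from different regions, so this SD is not the replicate spread of 1 promoter region. The Pfkfb3 region at the 5'-most site had 10.1 and 12.1. The aldolases, which split fructose 1,6-bisphosphate, had no fixed order. Aldoa had 11.0 and 14.0, and Aldoc, best known from brain, had 13.2 and 11.1. The difference, Aldoa minus Aldoc, was −2.23 in replicate 1 and 2.85 in replicate 2, and −1.57 in the pooled list.

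Lower glycolysis ranged from Pgk1, among the strongest promoters of the pathway, to Eno2, with none in the strict lists. Pgk1, encoding the phosphoglycerate kinase that makes the first ATP of glycolysis, had 19.6 and 21.9, at percentiles 94.6 and 97.7 of all genes with a promoter region in these lists. Pgam1, phosphoglycerate mutase, had 13.7 and 18.4, the widest spread between replicates of the 32 genes. Gapdh had 12 and 14.3, triose phosphate isomerase (Tpi1) had 11.4 and 11.5, and pyruvate kinase (Pkm) had 10.1 and 11.1. Enolase 1, the broadly expressed form, had 12.6 and 13.7 at Eno1. Eno2, known as neuron-specific enolase, had no promoter region in the IDR list of either replicate. Less strict peaks near Eno2 reached 2.87 and 3.26, at positions that differed between the replicates, and its −log10 IDR was 0.388.

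The step to lactate split by isoenzyme when a region at any start site counted. Ldha, the subunit that prevails in glycolytic cells, had 10.5 and 12.4. Ldhb, the heart-type subunit, was in neither IDR list and reached 6.51 and 4.64 in the less strict lists, with a −log10 IDR of 1.19. Slc16a3, which encodes the lactate exporter MCT4, had 7.74 and 8.67. This region lay 2.54 kb inside the gene, 116 bp from the start of a processed transcript and 334 bp from a coding start. At its 5'-most start site Slc16a3 had 4.99, in replicate 1 alone, below the value of Slc16a1 in that list. Slc16a1, encoding MCT1, had a promoter region in replicate 1 alone, at 6.24, and 4.43 in the less strict list of replicate 2, with a −log10 IDR of 1.03. Thus each of Hk3, Ldhb and Slc16a1 had a weak peak in both replicates that fell outside the stricter list of at least 1 replicate. The lowest −log10 IDR among the 32 open genes was 1.73, at Pgls. No statement of a closed promoter can be made for them. The Ldhb window is printed for comparison with Ldha, and holds a CCAAT box, in capitals, and no ACGTG.
Ldhb (chr6:142507924-142508024, minus strand): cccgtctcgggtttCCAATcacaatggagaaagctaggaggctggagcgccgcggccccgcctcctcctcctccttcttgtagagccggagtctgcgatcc

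The pentose phosphate pathway spanned the whole range, and held both the strongest and the weakest promoter of the 32 open genes. In the oxidative arm, G6pdx, the glucose 6-phosphate dehydrogenase that sets the flux into the pathway, had 11.2 and 12.4. Pgls, the lactonase of the next step, had 5.15 and 6.57, at percentiles 0.659 and 0.929 of all genes with a promoter region. Pgd, which makes the second NADPH, had 14.3 and 17.6. The 3 genes of one linear route thus differed widely, with Pgd highest and Pgls lowest in both replicates.

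In the other arm, Rpe, the ribulose 5-phosphate epimerase, had 20.1 and 24.2, at percentiles 95.5 and 99.7. Rpia, the ribose 5-phosphate isomerase, had 15.5 and 17.3, and transaldolase (Taldo1) had 13.4 and 14.5. Transketolase (Tkt) had 9.19 and 10.9. The Rpe and Pgls windows show the extremes of signal. In Rpe capitals mark an ETS string of the type bound by PU.1, a factor required for neutrophil development, a GC box and a CCAAT box. In Pgls they mark a CEBP string.
Rpe (chr1:66700753-66700853, plus strand): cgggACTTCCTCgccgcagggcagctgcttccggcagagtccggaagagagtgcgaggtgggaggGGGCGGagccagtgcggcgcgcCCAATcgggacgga
Pgls (chr8:71592035-71592135, plus strand): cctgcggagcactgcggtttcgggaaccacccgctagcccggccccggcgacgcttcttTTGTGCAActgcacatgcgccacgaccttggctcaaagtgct

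The 3 glycogen genes lay close together. Pygl, the phosphorylase that releases glucose 1-phosphate, had 12.1 and 14.0, Gys1, the synthase, had 12.9 and 14.6, and Gbe1, the branching enzyme, had 11.6 and 13.5. The 12.9 of Gys1 came from a region deep in the gene, and its region at the 5'-most site had 11.2 and 14.6. The controlling genes were among the strongest. Hif1a had 19.1 and 19.0, and Pdk1, a kinase that keeps pyruvate out of mitochondria by inactivating pyruvate dehydrogenase, had 17.0 and 18.7. Both lay above the median of all open genes in both replicates.

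Some of these genes were open at a start site other than the 5'-most one. Over the 32 genes in the pooled list, the strongest promoter summit lay more than 1 kb from the 5'-most start site in 9 (28.1%), against 13.7% of all genes. For 27 of 32 (84.4%) it lay within 150 bp of some start site of the gene, against 77.6% of all. The 9 include Eno1 and Gys1, whose inner regions lay far from any coding start, as described below. The pathway genes also had more annotated start sites (median 6 per gene against 3), which gives more places where a region can count. In Slc2a3 the region in both replicates lay 59.0 kb downstream of the 5'-most site, 132 bp from a protein-coding start site, and the 5'-most site had a region of 5.31 in the pooled list alone. In Hk1 it lay 39.7 kb in, 312 bp from a coding start site and 26 bp from that of the antisense gene Hk1os. A second, weaker Hk1 region at 52.2 kb was in replicate 1 alone, at 6.90. Pfkfb3 was open at its 5'-most site, at 10.1 and 12.1, and again 52.7 kb downstream, at 9.68 and 12.8, so that its highest value came from a different region in each replicate.

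Shorter shifts were found in Aldoa (9.81 kb), Hif1a (6.43 kb), Ldha (4.34 kb), Pygl (3.80 kb) and Slc16a3 (2.54 kb), for which the 5'-most site had no region in both replicates. The Ldha, Hif1a, Aldoa and Pygl summits each lay within 100 bp of a protein-coding start site, and that of Slc16a3 lay 334 bp from one. Eno1 and Gys1 differed from these. Each had a region near its 5'-most site, at 10.3 and 13.7 in Eno1 and 11.2 and 14.6 in Gys1, and a further one deep in the gene, at 12.6 and 11.3 for Eno1 and 12.9 and 11.4 for Gys1. The inner summits, 11.5 and 16.7 kb from the 5'-most sites, were 657 and 492 bp from the start of a transcript annotated as a retained intron and over 3 kb from any coding start, and they counted as promoter regions only through those transcripts. Without them Eno1 would have 10.3 in replicate 1, and it would still exceed Eno2.

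Some promoters were shared with a neighbour. The Pfkfb4 summit lay near the start site of the noncoding gene Gm38004, as given above. That of Pygl was 5 bp from a Pygl start site and 153 bp from that of F730035M05Rik, a noncoding gene on the opposite strand. The Gys1 promoter summit coincided with the start site of Ruvbl2, on the opposite strand, and the G6pdx summit lay 327 bp from that of Ikbkg, which encodes the regulatory subunit of the IκB kinase. In all, 11 of 32 genes had at least 2 promoter regions in the pooled list (34.4%), against 17.8% of all genes. The larger number of annotated start sites leaves more places for a further region, and its part in this share was not tested.

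**Figure D3:**
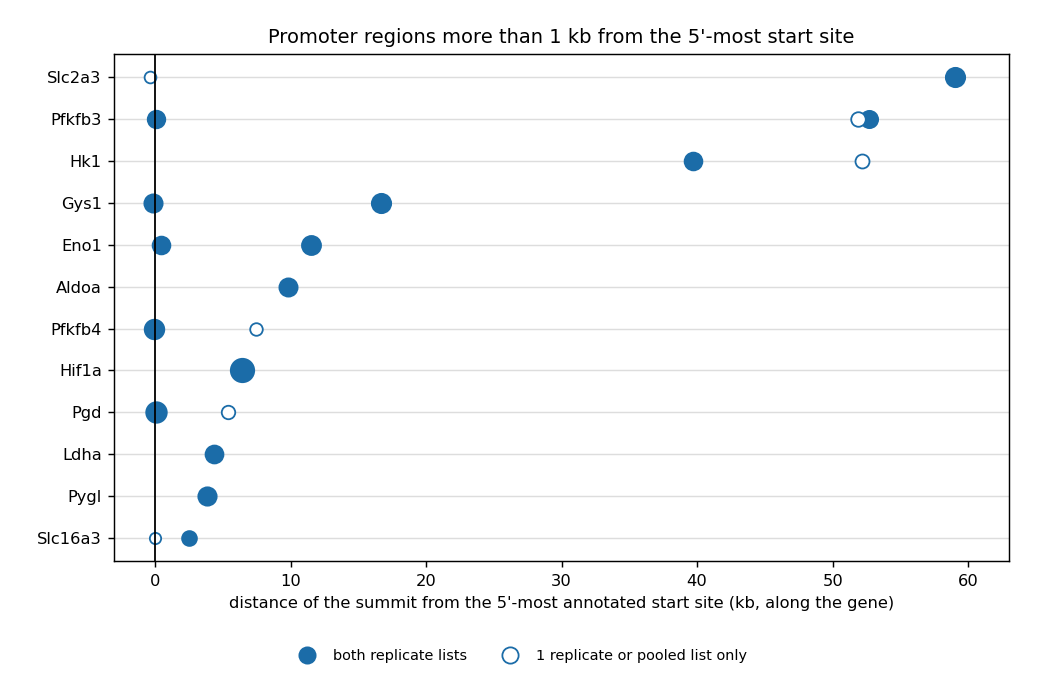
Position of promoter regions in the 12 genes with a pooled promoter region more than 1 kb from the 5'-most start site. The x axis is the distance of the summit from that site in kb, dot area follows the pooled signal value, and filled dots were in both replicate lists. Slc2a3, Hk1, Aldoa, Hif1a, Ldha, Pygl and Slc16a3 have their filled dot only away from the line at 0, while Pfkfb3, Gys1 and Eno1 have one at each place.

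Distal regions, with summits more than 1 kb from every annotated start site and within 50 kb of the 5'-most site, were more numerous around these genes than around genes overall. The mean per gene was 2.67 in replicate 1, against 1.17 for all genes, 1.28 in replicate 2, against 0.433, and 2.61 in the pooled list, against 1.02. At least 1 distal region was found for 32 of 36 genes (88.9%) in replicate 1, against 51.3% of all genes, for 22 of 36 (61.1%) in replicate 2, against 27.8%, and for 31 of 36 (86.1%) in the pooled list, against 47.6%. The 32 open pathway genes had 2.66 in the pooled list, against 1.44 for all 8712 genes open in both replicates, and the 3 pathway genes open in neither replicate (Hk3, Eno2 and Ldhb) had 2.33, against 0.627 for all such genes. In replicate 2 the 3 had 1.67 and the 32 had 1.25, and Eno2 held 5 regions in that list while Hk3 and Ldhb held 0. Gene density was alike, with a median of 2 other protein-coding genes starting within 50 kb in both cases.

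The pooled list gave 94 pairs of a gene and a region, over 92 different regions, since 2 regions lay near both Tpi1 and Eno2. Of the 92, 43 were in both replicate lists, 37 in that of replicate 1 alone, 0 in that of replicate 2 alone and 12 in neither. Introns held 43, exons 11 and the space between genes 38, and 30 lay inside the pathway gene itself. For 51 of 92 the nearest 5'-most start site was that of a pathway gene, so the other regions may belong to neighbours. Their median pooled signal value was 10.2, against 10.3 for all 13238 distal regions. Hk1, Gapdh, Ldhb, Rpe and Pdk1 had none in the pooled list, and Rpe thus joined the strongest promoter with no distal region.

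Rpia had the most, 10 regions in the pooled list, 8 in replicate 1 and 4 in replicate 2. Its strongest lay 5.82 kb upstream (16.6 pooled, 14.8 and 13.5 in the replicates), and 4 of the 10 were in both replicate lists. Rpia is the neighbour of Igkc, the constant gene of the immunoglobulin kappa light chain, which ends 38.8 kb from the 3′ end of Rpia on chromosome 6. The regions at 39.6 and 48.1 kb downstream lay between Rpia and Igkc, and of the replicate lists they were in that of replicate 1 alone. The others, with the strongest, lay within Rpia or upstream of it, on the side away from Igkc. Since B cell markers were open in both libraries, the neighbourhood of Igkc is named here, and its part in the Rpia regions was not tested. Without Rpia, an alternative chosen after seeing the data, the mean number of distal regions per gene, over both replicates, was 1.86, against 1.97 with it.

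Slc2a3 and Eno1 followed with 6 each. The strongest region of Slc2a3 lay in its own intron, 15.2 kb from the 5'-most site (14.4 pooled, 13.5 and 10.6). The strongest of Eno1 lay 42.6 kb upstream in an intron of Car6 (14.3 pooled, 12.3 and 11.9). Pfkl, Pfkfb4, Eno2 and Slc16a3 were tied at 5. The strongest of Pfkfb4 lay in its own intron, 18.0 kb downstream (16 pooled, 15.6 and 12), and that of Pfkl 18.2 kb upstream, nearest to Dnmt3l (14.6 pooled, 12.8 and 11.1). That of Slc16a3 lay 31.8 kb upstream in an intron of Ccdc57 (15.7 pooled, 15.1 and 11.3). Eno2, whose own promoter was in neither IDR list, had 5 regions in each replicate. Its strongest lay 36.1 kb upstream, between genes and nearest to Spsb2 (14.6 pooled, 13.7 and 13.2), and none of the 5 had Eno2 as the nearest gene.

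**Figure D4:**
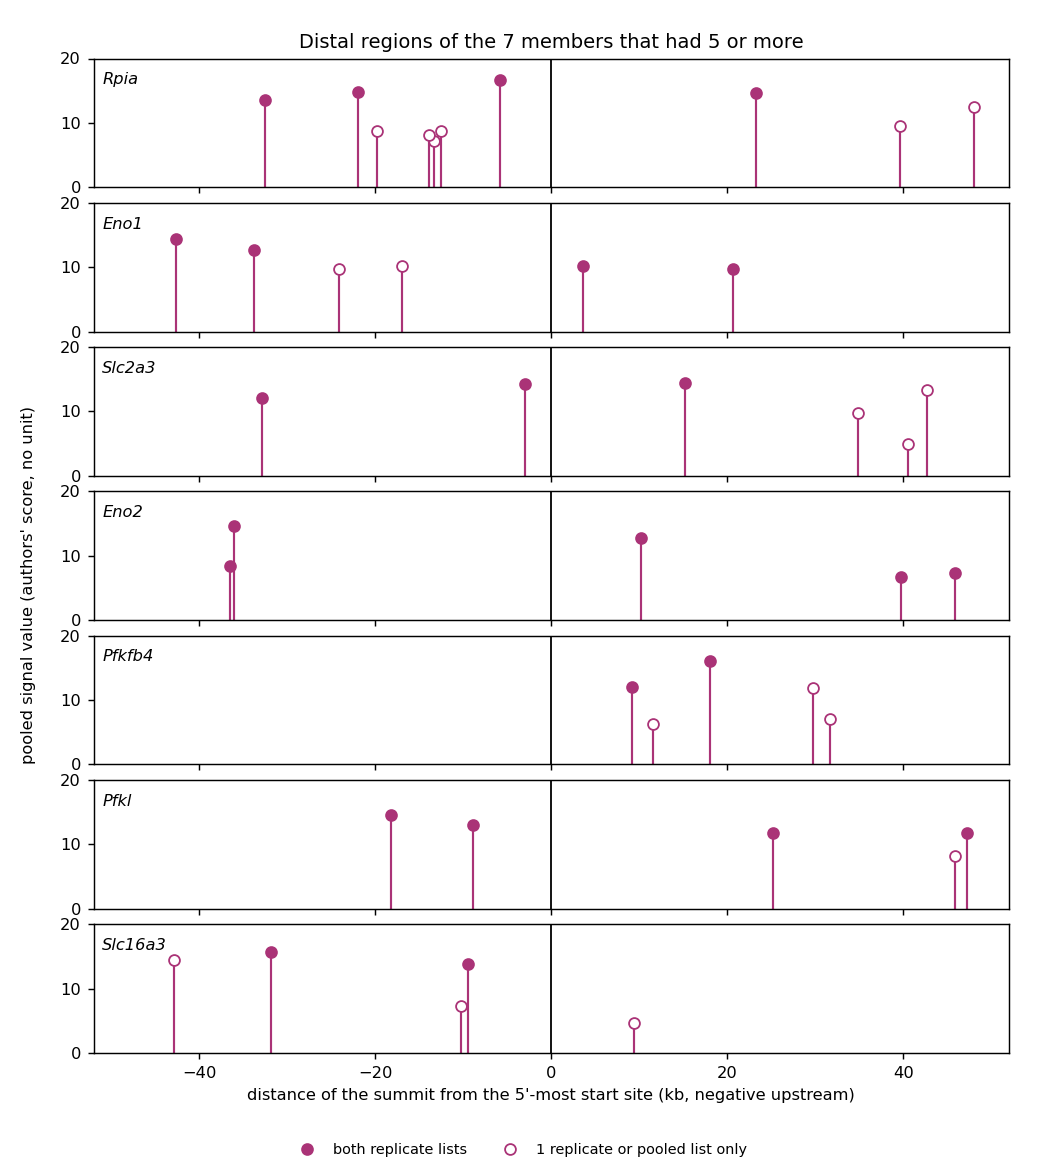
Distal regions of the 7 genes with at least 5 in the pooled conservative list. The x axis is the distance from the 5'-most start site in kb, negative upstream, the y axis is the pooled signal value (score without unit), and filled dots were in both replicate lists. The regions of Pfkfb4 all lie downstream, within the gene, while those of Rpia spread over both sides.

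Among all 92 distal regions, the strongest was that of Hif1a, 19.7 kb upstream of its 5'-most site between genes (18.3 pooled, 16.7 and 14.7). It was the only distal region of Hif1a. Next came an intron of Gbe1, 12.8 kb in (17.7 pooled, 16.4 and 14.3), and a region 15.8 kb upstream of Pgk1 (17.2 pooled, 16.5 and 10). Slc16a1, with its weak promoter, had an intronic region 5.51 kb in that was in both replicates, at 11.6 and 13.3. Hk3 had 2 regions, both in replicate 1 alone and in introns of its neighbour Uimc1, the stronger at 13.4. The Hif1a region is shown because it is the strongest, with a PU.1-type ETS string in capitals.
Hif1a distal (chr12:73881595-73881695, plus strand): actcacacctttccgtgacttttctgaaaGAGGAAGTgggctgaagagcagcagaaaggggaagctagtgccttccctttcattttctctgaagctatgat

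Motifs were searched as 12 fixed strings on both strands, and a match is a description of the letters, not of a bound site. Within 50 bp of the pooled promoter summit, ACGTG was present in 9 of 32 genes (28.1%), against 12.4% of all 10242 genes with a promoter region. The 9 genes are those printed above. None of the 9 matches was part of the E-box CACGTG, which overlaps it and was in 0 of 32 windows, against 4.53%. The window from 250 bp before to 50 bp after the 5'-most start site held ACGTG in 10 of 36 (27.8%). Of all 21911 genes 20.5% had it there. Within 500 bp on either side of that site ACGTG was in 27 of 36 (75%), against 48.2% of all genes. Both comparisons include genes without a promoter region, unlike that at the summit, so the sizes of the contrasts cannot be set side by side. Both start site windows miss the start site in use in several genes, as shown above.

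The GC box GGGCGG was in 19 of 32 summit windows (59.4%), against 41.9%, and the CCAAT box in 8 (25%), against 28.6%. The ETS core GGAAGT, common at promoters of blood cells, was in 2 of 32 (6.25%), Rpe and Pgk1, against 19.5%. The window from 250 bp before to 50 bp after the start site gave 11 of 36 (30.6%), against 24.8%. With 500 bp on either side it was 28 of 36 (77.8%), against 50.9%. The lower ETS share thus held for the summit window only. The CEBP string TTGCNNAA was in 3 of 32 (9.38%), Rpia, Pgls and Pkm, against 2.87%. The antioxidant core TGACNNNGC, read by NRF2 and its relatives, was in 2 (6.25%), Slc16a3 and G6pdx, against 6.73%. The RUNX string TGTGGT was in 2 (6.25%), against 4.72%, the PU.1-type string GAGGAAGT in 1 (3.12%), against 2.27%, and the TATA box TATAAA in 1 (3.12%), against 1.13%. The NRF1 string GCATGCGC and the AP-1 string TGANTCA were in 0 of 32, against 2.45% and 1.83%.

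At the 92 distal summits the picture differed in part from that at promoters. The ETS core was in 24 (26.1%), against 26.5% of all distal regions, and the PU.1-type string in 8 (8.70%), against 8.82%. The CEBP string was in 5 (5.43%), against 6.56%, and the GC box in 7 (7.61%), against 6.22%. ACGTG was in 14 (15.2%), against 7.87%, and AP-1 in 9 (9.78%), against 6.74%. The ETS, PU.1-type, CEBP and GC box shares thus lay close to those of all distal regions. The ACGTG share was above that of all distal regions, as it was above that of all genes at promoter summits.

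**Figure D5:**
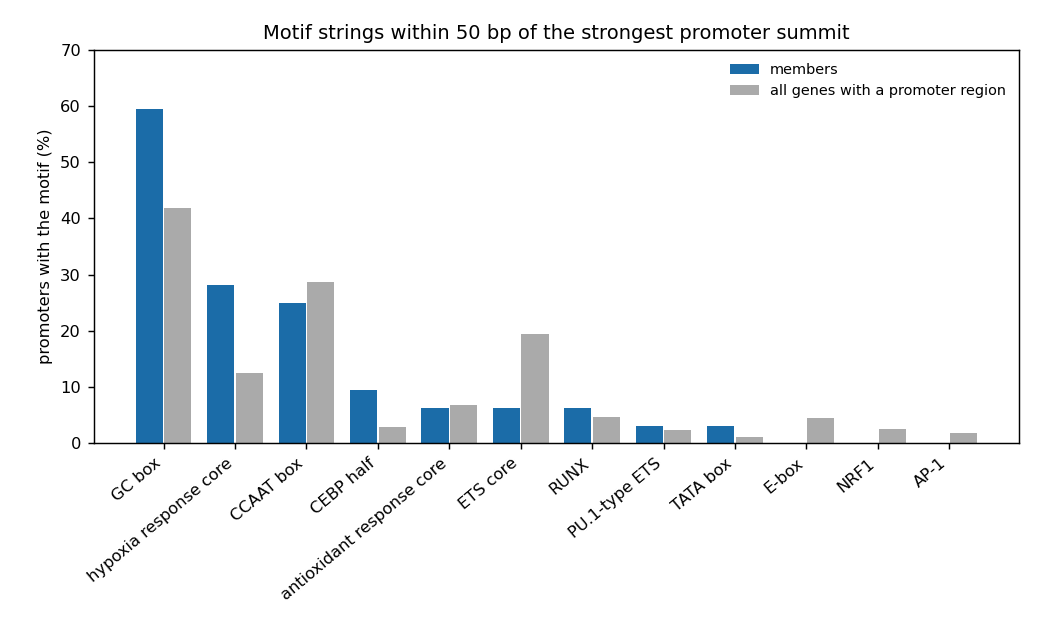
Share of promoters (%, y axis) with each of 12 motif strings within 50 bp of the strongest pooled promoter summit, in the 32 pathway genes (left bar of each pair) and in all 10242 genes with a promoter region (right bar). The hypoxia core stands at 28.1% against 12.4%, and the ETS core at 6.25% against 19.5%.

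A further list of 67 genes covered close relatives and neighbouring steps, and 39 of them (58.2%) had a promoter region in both replicates, against 39.8% of all genes, 6 in replicate 1 alone, 1 in replicate 2 alone and 21 in neither. Of 24 isoenzymes and transporters of the families above, 12 were open in both (50%), nearer to that share of all genes than the 36 were. Only 6 of the 24 had a CpG-rich 5'-most start site, against 22 of the 36. Over all genes 66.8% of the CpG-rich class and 18.2% of the others were open in both. The 24 were not split by this class, so their 50% is not set against a like background. Among glucose transporters Slc2a4, Slc2a6 and Slc2a8 were open, Slc2a9 was open in replicate 1 alone, and Slc2a2 and Slc2a5, known from liver and gut, were not. Among relatives of hexokinase and the phosphofructokinases, Adpgk, Pfkfb1, Pfkfb2 and Tigar were open, and Hkdc1 was not. Further down, Bpgm, Eno4, Slc16a7 and Bsg, the chaperone of the lactate transporters, were open. Gapdhs, Pgk2, Pgam2, Eno3, Pklr, Ldhc and Ldhd were not, a set that includes forms known from muscle and testis.

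The pentose phosphate relatives H6pd and Shpk were open and Tktl1 and Tktl2 were not. Of the glycogen genes Pygb, Ugp2 and Phka2 were open in both, Gyg and Phkb in replicate 1 alone, and the muscle and liver forms Pygm and Gys2 in neither. Among regulators, Arnt, Vhl, Egln2, Egln3, Hif1an, Mlx, Mlxip and Nfe2l2 were open in both. Hif3a, Mlxipl and Keap1 were open in replicate 1 alone, Egln1 in replicate 2 alone, and Epas1 and Myc in neither. The highest values of the 67 were those of Arnt, the partner of Hif1a (19.1 and 22.5), Bpgm, which makes 2,3-bisphosphoglycerate (19.3 and 20.8), Ugp2, which makes UDP-glucose (19.1 and 19.7), Slc37a4, the glucose 6-phosphate carrier of the endoplasmic reticulum (17.9 and 20.1), and Hif1an, which hydroxylates HIF (17.8 and 17.1). Both subunit genes of HIF-1 were therefore among the strongest promoters of these lists.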

How the data were processed

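The deposited files were peak lists on mm10 (GRCm38), per the labels. Per the file headers, the main list of each replicate is IDR-thresholded, a pseudoreplicated list of each is less strict, and both replicates together have a conservative IDR list and a larger IDR list. The signal value of a peak is a score from the authors' processing that the sources do not define, and the deposited −log10 p comes with no named test. The ranked list gives −log10 IDR per peak. Which aligner and peak caller were run, in which versions, and whether reads were shifted for the transposase is not given in the sources used here. No read counts were used, so depth is unknown, and numbers of regions in the replicates can differ with depth as with the cells.

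Overlapping peaks were merged into regions carrying the highest signal value and its summit (Python 3.11.15, pysam 0.24.0, samtools 1.23.1, overlap of at least 1 bp). The reference was GRCm38.p6 with GENCODE M21: 0 peaks lay beyond chromosome ends, and 329 of 329 sampled RefSeq promoter sequences equalled the genome. Coordinates count from 1. A start site was CpG-rich where, over 500 bp on either side, CpG was at 0.6 or more of its expected number and the GC share was 0.5 or more. Counts are set beside the same over all 21911 genes, with no test, and means are given with the SD over 2 replicates. The counting code was tested on simulated data.

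Members, gene lists, motifs and the rule for named genes were chosen with earlier results of these data known. The rule names all 36 genes, each relative in the families of the 36, the 5 highest of the other pathway genes, and the 5 genes with most distal regions, which became 7 through a tie. A few relatives under this rule are counted but not reported by name. Genes named beside a region, such as Senp1 or Igkc, were named after their values were seen. The summit windows printed were chosen by that rule's motif search and by the results they illustrate.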

Additional observations from a re-analysis of the deposited data

How the results depend on the processing

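The count of pathway genes open in both replicates, 32, ranged from 25 with the 5'-most start site alone to 36 with the less strict lists, and from 32 to 33 with either replicate alone. Promoter widths of 500 bp and 2.5 kb gave 32 each, peaks at or above the median signal value gave 27, and summits within 250 bp of a protein-coding start, an alternative chosen after seeing the data, gave 28. The mean number of distal regions per gene was 1.97, and it moved to 3.24 with a window of 100 kb (all genes 1.55) and to 3.56 with the less strict lists (all genes 1.69); the wider window and the longer lists hold more regions by construction. It was 1.18 with a window of 25 kb (all genes 0.408), 1.06 with peaks at or above the median signal value (0.381), 1.03 with regions nearest to the gene itself (0.347) and 1.40 with summits over 2.5 kb from every start site (0.615). With either replicate alone it ranged from 1.28 to 2.67, and centred on the open start site, also chosen after seeing the data, it was 1.90, against 0.806 for all genes. The leading isoenzyme was the same in all 8 families by −log10 p and with the less strict lists, in 7 of 8 in the pooled list, and in 7 to 8 of 8 with either replicate alone. With the 5'-most start site alone it was the same in 3 of 8, because Slc2a3, Hk1, Aldoa, Ldha and Slc16a3 were open elsewhere. Aldoa minus Aldoc, 0.314 on average, was −1.57 in the pooled list and ranged from −2.23 to 2.85 with either replicate alone; the cause was not tested. Motif counts depended on the window, and of 24 alternative counts, 18 changed by more than 1.5 times. No paired analysis was possible because there is 1 group. With 2 libraries and unknown depth, a gene missing from a list is not shown to be closed.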

Other observations

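Genes that bring pyruvate into mitochondria and oxidise it were mostly open. Of 9 such genes, 8 had a promoter region in both replicates, namely both subunits of the mitochondrial pyruvate carrier, Mpc1 (13.4 and 16.4) and Mpc2 (10.5 and 12.5), the pyruvate dehydrogenase subunits Pdha1 (17.8 and 13.8) and Pdhb (16.2 and 17.9), Dlat, the kinases Pdk2 and Pdk3, and the phosphatase Pdp1. The kinase Pdk4 had no promoter region in the strict or less strict list of either replicate. Across all protein-coding genes 39.8% were open in both replicates. Of these 9 genes 7 had a CpG-rich 5'-most start site, a class in which 66.8% of all genes were open in both.

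Of 8 gluconeogenesis genes, 5 were open in both replicates, and the members of a family differed. The mitochondrial Pck2 had 13.9 and 13.2, while the cytosolic Pck1 had no region. The broadly expressed G6pc3, whose loss is known to cause neutropenia in humans, had 11.0 and 8.10, while the liver gene G6pc had none. Fbp2 had 13.3 and 10.3, and Fbp1 reached 4.76 in the less strict list of replicate 1 alone. Pcx had 13.5 and 15.7. The genes of this paragraph and the one above were not chosen by the rule for named genes.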
